A study of Mus musculus with 18 samples.

Results

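The genes described here serve the entry of proteins into the endoplasmic reticulum (ER), their folding there and the disposal of those that fail. They were taken from a list of 41 gene symbols, and 40 of these were found among the 22180 genes of the array that had a probe set with exactly 1 symbol. The gene left out was Pdia4, a disulfide isomerase, which had no such probe set. Where a gene had several probe sets, the brightest on average over all arrays was used. By role, the 40 genes were 4 stress sensors and their transcription factor, 9 HSP70 and HSP90 chaperones with partners, 5 lectin chaperones and disulfide isomerases, 8 genes of ER-associated degradation, 9 of the translocation channel, 4 of signal peptidase and oligosaccharyltransferase, and Wfs1.

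RNA came from pancreatic islets of C57BL/6 mice, males and females, 16 weeks old, and was hybridised to 18 whole-transcript arrays, 3 in each of 6 groups. TRAF2 knockouts had loxP-flanked TRAF2 and TRAF3 knockouts loxP-flanked TRAF3, both with RIP-Cre, in which the rat insulin promoter drives Cre recombinase, so the deletion is aimed at beta cells while the islets also hold other cells. Controls were floxed littermates, and the labels do not say which gene was floxed in them or whether they carried Cre. Each genotype was kept on chow or was given a high-fat diet (HFD, 45% of calories from fat) for 8 weeks, which gave chow and HFD groups of control, TRAF2 knockout and TRAF3 knockout islets. The series text names TRAF2 for both knockouts, and the sample labels were followed. TRAF2 and TRAF3 restrain the kinase NIK, and the stated aim of the series was to learn what NIK does in beta cells. The labels do not say that the samples of a group came from separate animals, so p-values measure the spread between these samples.

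Secretory proteins are threaded into the ER through the SEC61 channel as they are made, lose their signal peptide to signal peptidase, receive sugars from oligosaccharyltransferase and fold with the help of the chaperone BiP (Hspa5), its co-chaperones, lectins and disulfide isomerases. Proteins that do not fold are drawn back into the cytosol by a complex around the ubiquitin ligase HRD1 (Syvn1). When unfolded proteins accumulate, the membrane sensors IRE1 (Ern1), PERK (Eif2ak3) and ATF6 start the unfolded protein response, in which IRE1 splices Xbp1 mRNA and the factors ATF6 and XBP1 raise the chaperone and degradation genes. Beta cells load this machinery heavily because they make large amounts of proinsulin. TRAF2 is also known to bind activated IRE1.

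The promoters of 5 genes that passed a test are shown, without that of Sec62, whose window held none of the motifs, because ATF6 and XBP1 act through known elements there. The ER stress response element ERSE (CCAAT and CCACG with any 9 bases between) and the shorter ERSE-II (ATTGG and CCACG with any 1 base between) were searched on both strands in RefSeq windows of 300 bases on mouse build GRCm38.p6, from 250 bases before to 50 after a gene's start. Windows were found for 32 of the 40 genes. ERSE stood in the windows of 9 genes (Calr, Canx, Creld2, Derl3, Dnajc3, Hsp90b1, Hspa5, Pdia6 and Syvn1), or 27.3% of their 33 windows, against 0.119% of all 32851 windows. ERSE-II stood in those of Dnajb11 and Herpud1, or 6.06% against 0.0365%. The letters CCACG, which also form the end of both elements, were in 72.7% of the windows of these genes and 32.8% of all windows. The letters TGACGTGG, the core of another XBP1 element, were in none of their windows and in 0.676% of all. An NF-kappaB motif was in 12.1% of their windows (Calr, Creld2, Derl3 and Edem1) and 8.46% of all, and in Derl3 it lay within the ERSE. The 250 bases before the start are printed on the gene's strand, with ERSE, ERSE-II and any CCACG on either strand in capitals. Hspa5 (chr2:34771840-34772089, plus strand) has 1 ERSE from -65 to -47, Syvn1 (chr19:6046326-6046575, plus strand) 1 ERSE from -44 to -26, Herpud1 (chr8:94386179-94386428, plus strand) 1 ERSE-II from -52 to -42 and Derl3 (chr10:75893148-75893397, plus strand) 1 ERSE on the opposite strand from -156 to -138, counted from -1 at the base before the start. Ern1 (chr11:106487797-106488046, minus strand) has neither element and 1 CCACG.
Hspa5: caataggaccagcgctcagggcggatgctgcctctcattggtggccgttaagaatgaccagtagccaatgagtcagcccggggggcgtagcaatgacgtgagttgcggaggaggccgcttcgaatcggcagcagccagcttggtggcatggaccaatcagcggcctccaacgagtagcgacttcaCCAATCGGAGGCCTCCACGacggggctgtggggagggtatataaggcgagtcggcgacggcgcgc
Syvn1: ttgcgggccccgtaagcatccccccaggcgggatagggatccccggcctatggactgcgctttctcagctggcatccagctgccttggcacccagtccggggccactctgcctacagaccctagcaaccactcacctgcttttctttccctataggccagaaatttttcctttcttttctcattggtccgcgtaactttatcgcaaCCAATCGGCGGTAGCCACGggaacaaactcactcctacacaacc
Herpud1: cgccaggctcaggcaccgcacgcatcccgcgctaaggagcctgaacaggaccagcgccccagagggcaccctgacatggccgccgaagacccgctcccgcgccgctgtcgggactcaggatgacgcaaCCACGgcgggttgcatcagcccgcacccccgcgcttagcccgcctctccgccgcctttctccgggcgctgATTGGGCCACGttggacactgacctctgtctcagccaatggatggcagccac
Derl3: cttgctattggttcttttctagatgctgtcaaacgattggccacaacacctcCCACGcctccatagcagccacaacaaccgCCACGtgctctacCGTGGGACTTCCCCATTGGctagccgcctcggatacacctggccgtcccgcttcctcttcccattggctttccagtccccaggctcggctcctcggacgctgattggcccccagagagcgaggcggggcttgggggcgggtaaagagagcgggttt
Ern1: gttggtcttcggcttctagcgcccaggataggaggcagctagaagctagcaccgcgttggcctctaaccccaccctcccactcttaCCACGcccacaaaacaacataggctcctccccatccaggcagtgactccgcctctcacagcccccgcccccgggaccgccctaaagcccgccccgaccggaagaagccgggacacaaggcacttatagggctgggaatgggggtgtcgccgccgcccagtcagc

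Values are log2 intensities, as the authors deposited them, and a difference of 1 is a doubling. Levels of different probe sets are not compared. Differences were tested with limma over all 22180 genes, in 12 comparisons of the 6 groups, and a gene counts as having risen or fallen where its Benjamini-Hochberg adjusted p, over all genes, was under 0.05. An error beside a difference is limma's standard error (SE). Arrays of a group correlated at 0.9595 to 0.993 over all genes. The 40 genes varied less within groups than genes on the array did as a whole, with a median standard deviation (SD) of 0.171 against 0.219. Sec61a1, the pore subunit of the channel, varied least (0.0678) and Derl3, a derlin of the degradation complex, most (0.607). Traf2 itself, measured over the whole transcript and so no check of the floxed part, passed in none of the 12 comparisons. Judged by Xist and Y-linked genes, replicate 1 was female and the other 2 male in every chow group, all 3 HFD controls were female, and in both HFD knockout groups replicate 1 was male and the rest female. The beta cell score, the mean deviation of 11 beta cell genes from their mean over all arrays, was -1.27 to -0.53 in chow TRAF3 knockouts and 0.08 to 0.53 in chow controls, and 8 of the 11 genes fell. Fewer beta cells and less RNA of these genes per cell cannot be told apart in whole islets.

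**Figure D1:**
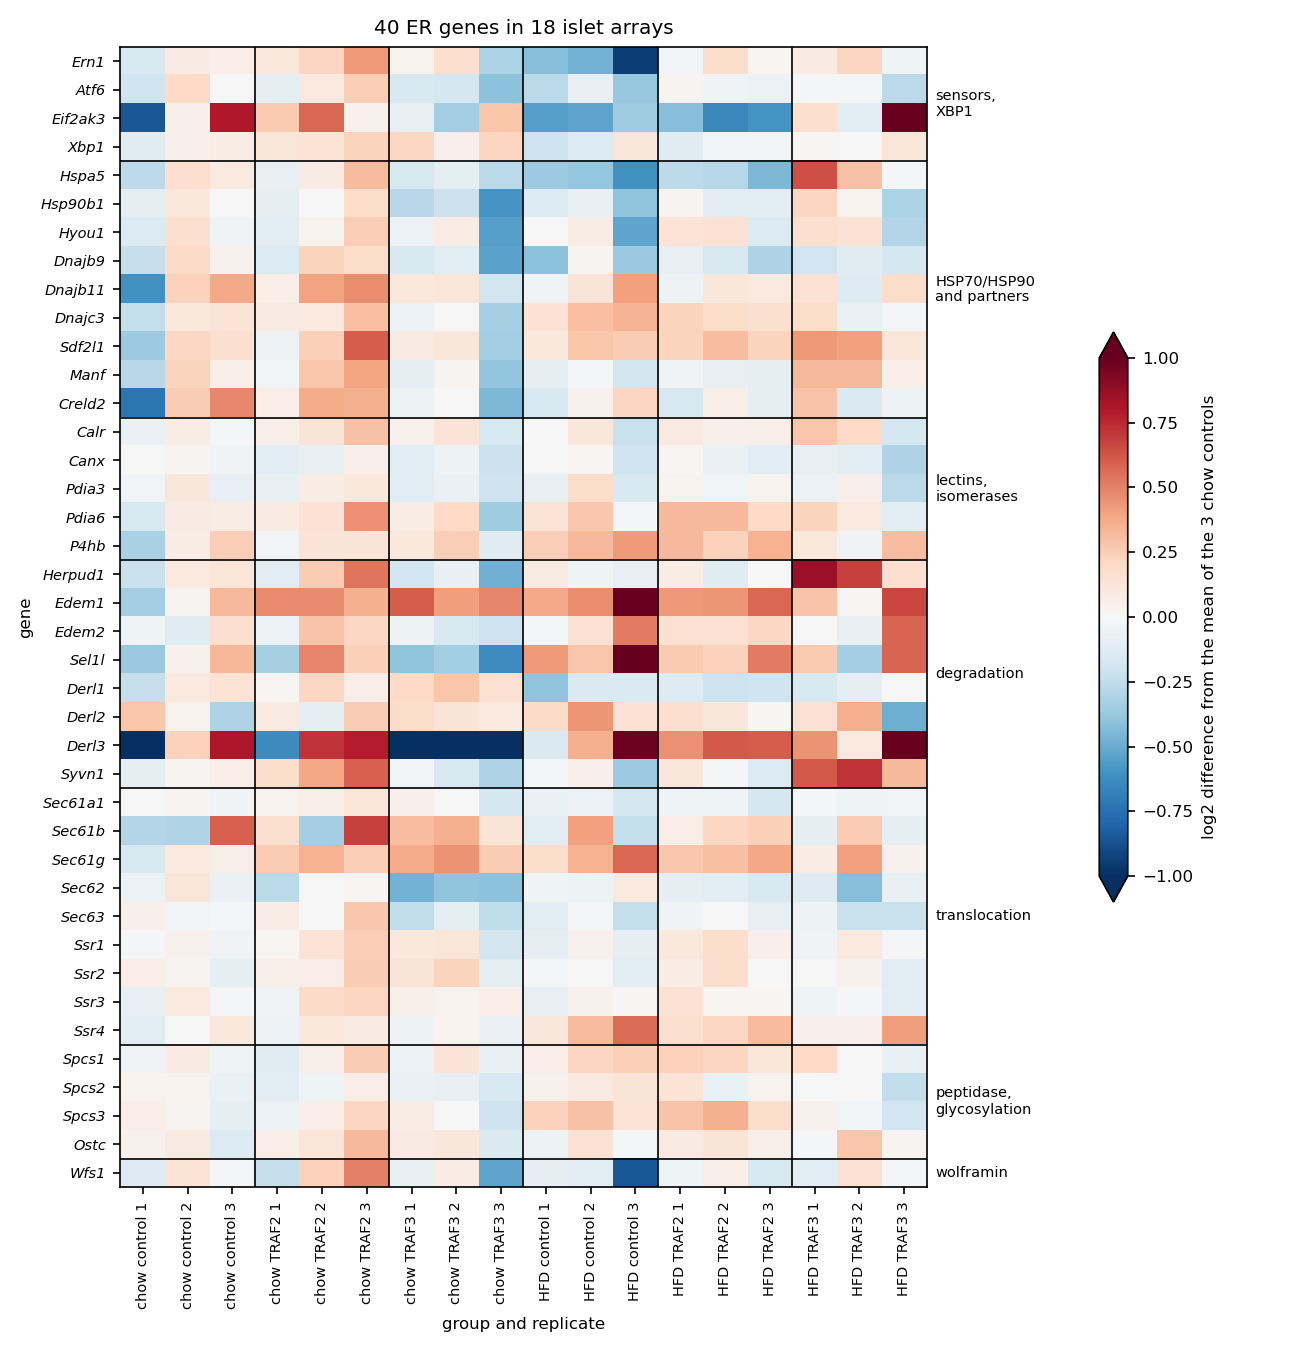
Log2 difference of each of the 40 ER genes (rows, by role) from the mean of the 3 chow controls, in each of the 18 arrays (columns, by group and replicate), with the color scale stopped at 1 and -1. Derl3 is dark blue in all 3 chow TRAF3 knockouts, Hspa5 and Herpud1 are reddest in HFD TRAF3 knockout 1, and Syvn1 in HFD TRAF3 knockout 2.

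In TRAF3 knockout islets on HFD, 3 of the 40 genes rose over HFD controls and none fell, against 2.52% of all genes called in either direction and 1.68% called higher. They were the chaperone BiP (Hspa5), the ligase HRD1 (Syvn1) and the sensor IRE1 (Ern1). Each was 1.58 to 1.69 times the control level, and in each the 3 knockout arrays lay above the 3 controls. The median difference over the 40 genes was 0.01 (all genes -0.02), and 21 of the 40 were above 0. The count of 3 was 0 without HFD control 3, HFD TRAF3 knockout 1 or HFD TRAF3 knockout 2. It was also 0 when only these groups' arrays were fitted (adjusted p = 0.209, 0.233 and 0.212).

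Hspa5 (probe set 17370103) codes for BiP, the HSP70 of the ER, which binds unfolded chains and holds the stress sensors inactive. It read 10.41, 10.38 and 10.16 in HFD controls and 11.41, 11.06 and 10.75 in HFD TRAF3 knockouts. The groups did not overlap, and knockout replicate 3 lay nearest to the controls. The difference was 0.76 ± 0.16 (1.69-fold, 95% interval 0.41 to 1.11, limma adjusted p = 0.0214). HFD TRAF2 knockouts read 10.51, 10.48 and 10.32 and overlapped the controls (0.12 ± 0.16, adjusted p = 0.979). On chow the TRAF3 knockouts read 10.60, 10.67 and 10.50, overlapping the chow controls at 10.50, 10.93 and 10.86 (-0.18 ± 0.16, adjusted p = 0.598). The effect of the TRAF3 knockout therefore differed between diets, by 0.94 ± 0.23 (adjusted p = 0.0293). The rise on HFD was lost without HFD control 2 or 3 or HFD TRAF3 knockout 1 or 2, with adjusted p from 0.0537 to 0.0916. The 1 male array of the group, knockout 1, was the highest, and the 2 female knockout arrays also lay above the 3 female controls.

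Syvn1 (probe set 17356583) codes for HRD1, the ligase that marks misfolded proteins for the proteasome. HFD controls read 9.02, 9.09 and 8.68 and HFD TRAF3 knockouts 9.65, 9.76 and 9.36, with no overlap (0.66 ± 0.15, 1.58-fold, adjusted p = 0.0258). On chow the TRAF3 knockouts read 9.01, 8.88 and 8.73 and the controls 8.94, 9.07 and 9.11. Those groups overlapped (-0.17 ± 0.15, adjusted p = 0.577), and the effect differed between diets by 0.83 ± 0.21 (adjusted p = 0.0319). Chow TRAF2 knockouts read 9.21, 9.42 and 9.63, all above their controls, but did not pass (0.38 ± 0.15, adjusted p = 0.64).

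Ern1 (probe set 17270888) codes for IRE1, the sensor kinase and nuclease that splices Xbp1 mRNA. Its reading was 10.38, 10.33 and 9.86 in HFD controls, the lowest of the 6 groups. HFD TRAF3 knockouts read 10.89, 11.02 and 10.76 and HFD TRAF2 knockouts 10.78, 10.98 and 10.83, so that both knockouts lay above the controls without overlap. The difference passed for the TRAF3 knockout (0.70 ± 0.16, 1.63-fold, adjusted p = 0.0263) and not for the TRAF2 knockout (0.67 ± 0.16, adjusted p = 0.124), and the 2 knockouts differed by 0.03 ± 0.16 (95% interval -0.30 to 0.37). These comparisons share the same 3 controls. On chow Ern1 read 10.66, 10.89 and 10.88 in controls, 10.92, 11.02 and 11.23 in TRAF2 knockouts and 10.84, 10.98 and 10.49 in TRAF3 knockouts. Neither chow difference passed (0.25 and -0.04, adjusted p = 0.898 and 0.932). In controls HFD arrays lay below the chow arrays (-0.61 ± 0.16, adjusted p = 0.0752).

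Over both knockouts and both diets, Ern1 was the 1 gene of the 40 that passed, against 2.8% of all genes called and 1.84% called higher. It was 0.40 ± 0.10 higher (1.32-fold, adjusted p = 0.0379), although the 12 knockout and 6 control arrays overlapped. It passed in 5 of 18 fits that each left out 1 array, with differences from 0.31 to 0.44 and adjusted p from 0.0243 to 0.122. The next smallest p among the 40 was that of Sec62 (-0.21 ± 0.07, adjusted p = 0.14).

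**Figure D2:**
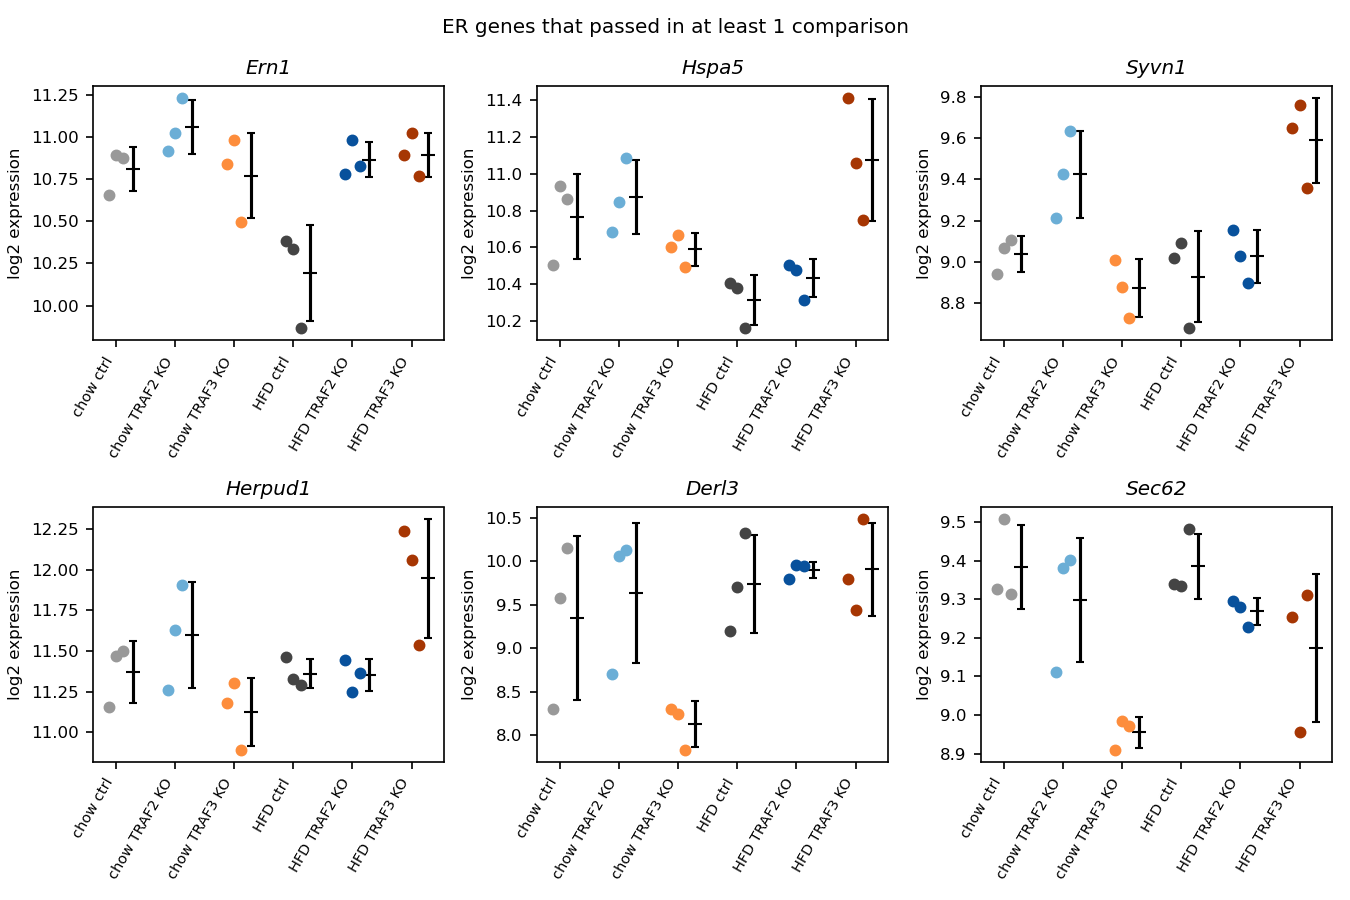
Log2 expression of the 6 ER genes that passed in at least 1 comparison, with 1 point an array and the mean ± SD of the 3 arrays beside each group. Hspa5, Syvn1 and Ern1 in HFD TRAF3 knockouts lie above the HFD controls, and Sec62 in chow TRAF3 knockouts lies below the chow controls.

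Manf, a secreted ER stress factor, and Herpud1, a scaffold of the degradation complex, also lay above the HFD controls in all HFD TRAF3 knockout arrays without passing (0.33 ± 0.15, adjusted p = 0.306, and 0.59 ± 0.19, adjusted p = 0.121). The sensor Eif2ak3 read 8.77, 8.79 and 8.97 in HFD controls and 9.49, 9.21 and 10.44 in HFD TRAF3 knockouts. It had the largest difference of the 40 genes in this comparison (0.87 ± 0.34, adjusted p = 0.226) and a wide spread. Hsp90b1, the ER member of the HSP90 family, differed by 0.18 ± 0.15 (adjusted p = 0.622), and Hyou1, a large HSP70 relative that acts as a nucleotide exchange factor of BiP, by 0.16 ± 0.19 (adjusted p = 0.765). Dnajb9, Dnajb11 and Dnajc3, J-domain partners of BiP, differed by 0.09, -0.10 and -0.23. The BiP partner Sdf2l1 and the ER protein Creld2 differed by 0.11 and -0.01, and the lectins Calr and Canx by 0.13 and -0.10. The disulfide isomerases Pdia3, Pdia6 and P4hb differed by -0.07, -0.06 and -0.20. Xbp1 differed by 0.12 ± 0.11 and Atf6 by 0.14 ± 0.14; the probe set of Xbp1 sums over the transcript and does not report its splicing. In the degradation group, the lectins Edem1 and Edem2 differed by -0.29 and -0.05, the HRD1 adaptor Sel1l by -0.40 ± 0.26, and Derl1, Derl2 and Derl3 by 0.15, -0.25 and 0.17. For 36 of the 40 genes the 95% interval of this difference lay within a doubling or halving. The exceptions were Ern1, Eif2ak3, Hspa5 and Derl3.

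The channel, signal peptidase and oligosaccharyltransferase genes did not pass in this comparison. Sec61a1 differed by 0.07 ± 0.09, the small channel subunits Sec61b and Sec61g by 0.00 and -0.19, Sec63 by -0.04, and the translocon-associated proteins Ssr1, Ssr2, Ssr3 and Ssr4 by 0.06, 0.02, -0.05 and -0.16. The signal peptidase subunits Spcs1, Spcs2 and Spcs3 differed by -0.13, -0.17 and -0.28, and all HFD TRAF3 knockout arrays lay below the controls for Spcs2 and Spcs3 (adjusted p = 0.483 and 0.252). Ostc, an oligosaccharyltransferase subunit, differed by 0.07 and Wfs1, the ER membrane protein wolframin, by 0.36 ± 0.21 (adjusted p = 0.468). Without overlap, 7 of the 40 genes lay above and 3 below the controls, and 8.61% and 7.98% of all genes did so.

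Markers of other cells moved beside the HFD comparison of the TRAF3 knockout. The acinar score, over 26 genes of the exocrine pancreas, was 0.36 to 0.92 in HFD controls and -1.39 to 0.80 in HFD TRAF3 knockouts, and although 0 of the 26 passed by limma (3 at an unadjusted p under 0.05), all 26 were below 0. With this score as a covariate the differences of Hspa5, Ern1 and Syvn1 were 0.69, 0.58 and 0.54 (adjusted p = 0.0409, 0.0524 and 0.0504), so that those of Ern1 and Syvn1 narrowly missed the threshold. Adgre1 of 10 macrophage genes and Acta2 of 8 fibroblast, stellate and pericyte genes fell, and the keratin gene Krt8 of 10 ductal genes rose. The scores of these lists overlapped between HFD controls and HFD TRAF3 knockouts. They were 0.07 to 0.89 and -0.89 to 0.30 for macrophages, and -0.21 to 1.34 and -0.81 to 0.90 for fibroblasts, stellate cells and pericytes. For ductal cells they were -0.68 to -0.35 and -0.53 to 0.57. The part of these other cells in the result was not tested. Beta cell scores overlapped, at -0.05 to 0.35 in HFD controls and -0.16 to 0.36 in HFD TRAF3 knockouts, and 0 of 11 beta cell genes passed, by adjusted or unadjusted p.

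**Figure D3:**
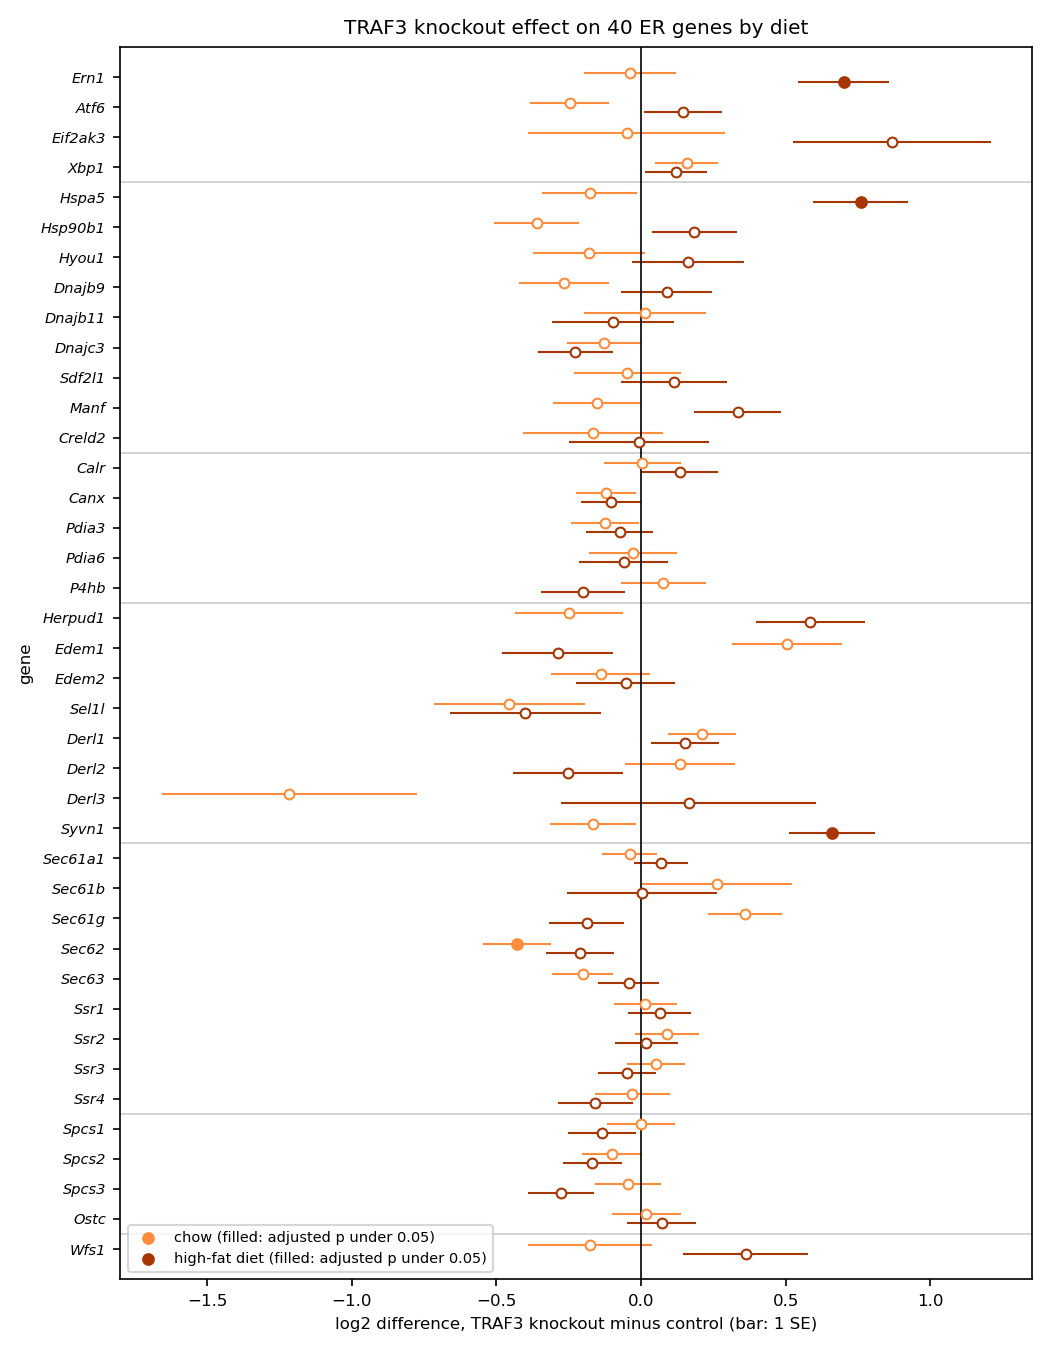
TRAF3 knockout minus control on chow (orange) and on HFD (dark red) for the 40 ER genes, as the log2 difference with a bar of 1 SE on each side; filled points had an adjusted p under 0.05. Sec62 passed on chow and Hspa5, Syvn1 and Ern1 on HFD, and for most other genes the values of both diets lie within 0.5 of 0.

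On chow, 1 of the 40 genes fell in TRAF3 knockout islets and none rose, a share of the 40 below the 11% of all genes called (4.69% lower). The gene was Sec62 (probe set 17396593), a membrane protein of the translocon that helps short secretory precursors into the ER. Chow controls read 9.33, 9.51 and 9.31 and chow TRAF3 knockouts 8.91, 8.98 and 8.97. The knockout arrays lay below every other array of the 18 except HFD TRAF3 knockout 2 at 8.96. The difference was -0.43 ± 0.12 (0.743-fold, 95% interval -0.68 to -0.18, adjusted p = 0.0282), and it was lost without any of the 3 knockout arrays or without chow control 1 or 2 (adjusted p from 0.0507 to 0.109). The count on chow was 2 without chow control 3 or chow TRAF2 knockout 1. Its partner Sec63, which recruits BiP to the channel, also lay below the controls without overlap but did not pass (-0.20 ± 0.11, adjusted p = 0.267). On HFD Sec62 read 9.34, 9.33 and 9.48 in controls and 9.25, 8.96 and 9.31 in TRAF3 knockouts, again without overlap (-0.21 ± 0.12, adjusted p = 0.434).

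The largest chow difference among the 40 was that of Derl3, at -1.22 ± 0.44, which did not pass (adjusted p = 0.0918). Edem1, which hands misfolded glycoproteins to degradation, and Sec61g lay above the controls (0.50 ± 0.19, adjusted p = 0.106, and 0.36 ± 0.13, adjusted p = 0.0888). Sel1l differed by -0.46 ± 0.26 (adjusted p = 0.32), Edem2 by -0.14, and the derlins Derl1 and Derl2 by 0.21 and 0.14. Of the 9 chaperones and partners, 8 were below 0, with Hsp90b1 the lowest (-0.36 ± 0.15, adjusted p = 0.139). The median of the 40 genes was -0.05 (all genes -0.01), and 4 genes lay below and 3 above the controls without overlap, against 15.1% and 15.9% of all genes. Beside these values, 8 of 11 beta cell genes fell, 2 of 7 genes of the other endocrine cells fell, and 3 of 10 macrophage genes (Cd68, Cd14 and Fcer1g) and 1 of 10 ductal genes (Anxa3) rose. Rgs5 of 8 fibroblast, stellate and pericyte genes also fell (-1.12 ± 0.28, limma adjusted p = 0.0199). The ductal score was 0.50 to 1.14 in these knockouts and -1.07 to 0.43 in the controls, and with it as a covariate the difference of Sec62 was -0.51 and missed the threshold (adjusted p = 0.0599). Their part in the values of the 40 genes was not tested.

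None of the 40 genes passed by limma between TRAF2 knockouts and their controls. On chow 0 of 40 passed and 3 had an unadjusted p under 0.05 (Syvn1, Edem1 and Sec61g), against 0.298% of all genes called. The differences were small, with 37 of 40 above 0, a median of 0.13 (all genes -0.01) and the highest at 0.43 ± 0.19 (Edem1, adjusted p = 0.745). The median was 0.06 without chow control 1 and 0.07 without chow TRAF2 knockout 3. Without overlap, 7 genes lay above the controls and 0 below, and 4.68% and 4.82% of all genes did so. On HFD 0 of 40 passed and 1, Ern1, had an unadjusted p under 0.05, against 0.252% of all genes called, and the median was 0.04. The 95% intervals of 38 of the 40 genes lay within a doubling or halving on each diet. A difference of the TRAF2 knockout effect between diets passed for none of the 40 (0 by adjusted and 0 by unadjusted p, against 0% of all genes). The 95% intervals of this difference reached beyond a doubling or halving for 6 genes (Eif2ak3, Dnajb11, Creld2, Edem1, Sel1l and Derl3), so sizeable differences there could be missed.

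Diet changed 3 of the 40 genes in TRAF3 knockout islets, all upward, against 8.67% of all genes called and 2.66% called higher. Syvn1, Herpud1 and Derl3 rose from chow to HFD. All are among the 8 genes of ER-associated degradation, where Derl1 was -0.29 ± 0.12 (adjusted p = 0.148) with its HFD arrays below the chow arrays, Derl2 was -0.13 and Edem1 -0.18. Sel1l and Edem2 read higher on HFD without passing, with means of 10.80 and 10.59 against 10.18 and 10.285 on chow. In each of the 3 that rose, the HFD arrays lay above the chow arrays, and ERSE or ERSE-II stands in the promoter window shown above. Of the 11 genes with either element in their window 3 rose, so most did not pass, and of the 21 with neither 0 rose. The part of these elements was not tested.

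Syvn1 was 0.72 ± 0.15 higher on HFD (1.64-fold, adjusted p = 0.00823), which was lost without chow TRAF3 knockout 3 (adjusted p = 0.0521). Herpud1 (probe set 17504005) read 11.18, 11.30 and 10.89 on chow and 12.24, 12.06 and 11.54 on HFD in TRAF3 knockouts. The difference of 0.82 ± 0.19 (1.77-fold, adjusted p = 0.0144) was lost without chow replicate 3 or HFD replicate 1 or 2 (adjusted p from 0.0598 to 0.0868). In controls Herpud1 was 11.16, 11.47 and 11.50 on chow and 11.46, 11.33 and 11.29 on HFD, with overlap (-0.01 ± 0.19). Its effect of the TRAF3 knockout differed between diets by 0.83 ± 0.27, which did not pass (adjusted p = 0.076). BiP read higher in all HFD arrays than in the chow arrays without passing (0.48 ± 0.16, adjusted p = 0.0829), and all 9 chaperones and partners were above 0 (median 0.19).

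Derl3 (probe set 17234423) codes for a derlin of secretory cells. TRAF3 knockouts read 8.31, 8.25 and 7.83 on chow and 9.79, 9.44 and 10.49 on HFD, a difference of 1.78 ± 0.44 (3.43-fold, adjusted p = 0.0214). It was lost without chow replicate 1 or 3 or HFD replicate 3 (adjusted p from 0.0531 to 0.107). Chow controls were spread over 8.31, 9.58 and 10.15 and chow TRAF2 knockouts over 8.71, 10.07 and 10.13, so replicate 1 of both groups read near the chow TRAF3 knockouts. HFD controls read 9.20, 9.70 and 10.33 and HFD TRAF2 knockouts 9.80, 9.96 and 9.95. Derl3 is abundant in exocrine cells. Acinar scores of TRAF3 knockouts were -0.54 to 0.10 on chow and -1.39 to 0.80 on HFD, 0 of 26 acinar genes passed by limma (1 at an unadjusted p under 0.05), and 12 were above 0. Beta cell scores of TRAF3 knockouts were -1.27 to -0.53 on chow and -0.16 to 0.36 on HFD, and 8 of 11 beta cell genes rose, as did Ttr (0.83) and Ghrl (0.83) among 7 genes of other endocrine cells. Ductal scores went the other way, from 0.50 to 1.14 on chow and from -0.53 to 0.57 on HFD, and with that score as a covariate the difference of Herpud1 was 0.73 and missed the threshold (adjusted p = 0.0671). Of other markers, Anxa3 of 10 ductal genes (-2.96), Cd68 of 10 macrophage genes (-1.74) and Cdh5 and Esam of 6 endothelial genes (-0.90 and -0.82) fell. Macrophage scores overlapped, at -0.24 to -0.02 on chow and -0.89 to 0.30 on HFD. Endothelial scores also overlapped, at 0.05 to 0.27 on chow and -0.81 to 0.27 on HFD. Chow control 1, at 8.31, had the highest beta cell score of its group (0.53). The part of these cells in the values of Syvn1, Herpud1 and Derl3 was not tested.

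**Figure D4:**
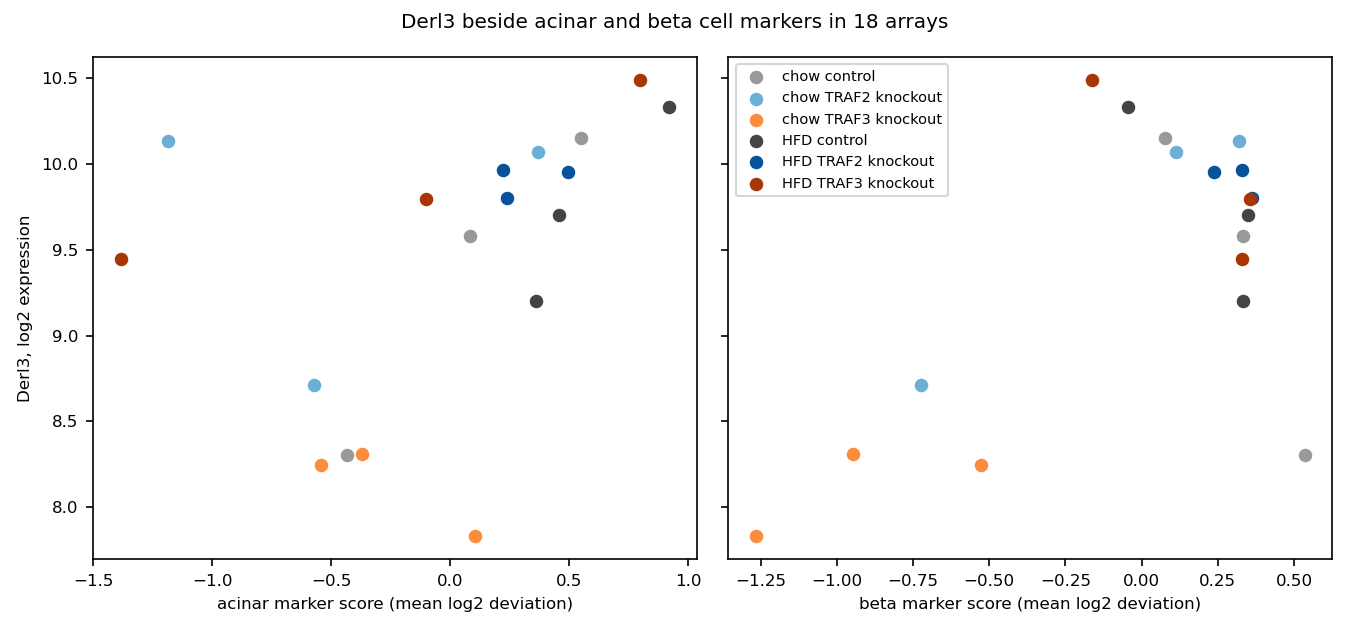
Log2 expression of Derl3 against the acinar score (left) and the beta cell score (right), each the mean log2 deviation of the marker genes from their means over all arrays, with 1 point for each of the 18 arrays. The chow TRAF3 knockouts have the lowest Derl3 values with chow control 1, and their beta cell scores are -1.27 to -0.53.

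In control islets diet changed 0 of the 40 genes, with 7 at an unadjusted p under 0.05, against 0.884% of all genes called. Ern1 had the smallest p and was lower on HFD. Edem1 had the next and was higher (0.61 ± 0.19, adjusted p = 0.132). Hspa5 was -0.45 ± 0.16 (adjusted p = 0.194), without overlap. In TRAF2 knockouts 0 of 40 passed, with 4 at an unadjusted p under 0.05, against 1.96% of all genes called. There Syvn1 and Hspa5 were lower on HFD without overlap (-0.40 ± 0.15 and -0.44 ± 0.16, adjusted p = 0.206 and 0.208), as was Eif2ak3 (-0.85 ± 0.34, adjusted p = 0.251).

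The diet dependence of the TRAF3 knockout effect passed for 2 of the 40 genes, Hspa5 and Syvn1, both upward, against 5.8% of all genes called and 2.52% called higher. Ern1 (0.74 ± 0.22, adjusted p = 0.0635), Herpud1, Edem1 (-0.79, adjusted p = 0.0957) and Sec61g (-0.55, adjusted p = 0.0896) came next. The count of 2 was 0 without chow control 2 or 3, chow TRAF3 knockout 3, HFD control 3 or HFD TRAF3 knockout 1 or 2, was 1 without chow TRAF3 knockout 1, and was 6 without HFD TRAF3 knockout 3. The median of the 40 was 0.05 (all genes -0.01). Among the 11 genes with ERSE or ERSE-II in their window the median was 0.16 and 8 were above 0. Among the 21 genes whose window held neither it was 0.05 and 11 were above 0. These are descriptions of overlapping ranges.

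Compared directly, the TRAF3 and TRAF2 knockouts differed in 0 of 40 genes on chow, with 11 at an unadjusted p under 0.05, against 2.01% of all genes called. Of the 40, 35 were lower in TRAF3 knockouts, the median was -0.25 (all genes 0.00), and 10 lay below the TRAF2 knockouts without overlap (10% of all genes did). Syvn1 (-0.55 ± 0.15, adjusted p = 0.0667) and Derl3 (-1.51 ± 0.44, adjusted p = 0.0866) had the smallest p. Without chow TRAF2 knockout 1, 3 of the 40 passed, and without chow control 1, HFD control 3 or HFD TRAF3 knockout 3, 1 did. The mean deviation of the 40 genes was -0.05, 0.13 and 0.25 in chow TRAF2 knockouts 1 to 3 and -0.07, -0.04 and -0.27 in chow TRAF3 knockouts. The lowest array of the TRAF2 group thus lay within the range of the TRAF3 group, and the median was -0.14 without chow TRAF2 knockout 3 and -0.11 without chow TRAF3 knockout 3. All 11 genes with ERSE or ERSE-II were lower in TRAF3 knockouts (median -0.30), as were 17 of the 21 without (median -0.12). On HFD 0 of 40 passed, with 5 at an unadjusted p under 0.05, against 1.05% of all genes called. Hspa5 (0.64 ± 0.16, adjusted p = 0.0876), Syvn1 (0.56 ± 0.15, adjusted p = 0.0949) and Herpud1 (0.59 ± 0.19, adjusted p = 0.188) read higher in HFD TRAF3 knockouts without overlap. Without HFD TRAF3 knockout 3, 3 of the 40 passed.

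Genes placed downstream of PERK, the sensor that slows translation by phosphorylating eIF2-alpha, moved further than the 40 genes in the same islets. PERK activity itself was not measured. Of 12 genes of the PERK, ATF4 and CHOP branch, 5 rose in HFD TRAF3 knockouts over controls and none fell, against 1.68% of all genes called higher. The median of the 12 was 1.28 (all genes -0.02). Their score was 0.27 to 0.72 in HFD TRAF3 knockouts and -0.88 to -0.65 in HFD controls. In HFD TRAF2 knockouts it was -0.81 to -0.54. On chow it was -0.84 to 0.69 in controls, 0.32 to 0.55 in TRAF2 knockouts and 0.30 to 0.40 in TRAF3 knockouts. The HFD TRAF3 knockouts thus overlapped each of the chow groups in this score. Atf3, a stress-induced transcription factor, read 6.43, 6.64 and 6.30 in HFD controls and 11.41, 10.64 and 10.12 in HFD TRAF3 knockouts (4.26 ± 0.60, adjusted p = 0.0016). Ppp1r15a, the phosphatase subunit GADD34 that reverses the eIF2-alpha mark, read 6.21, 6.55 and 6.01 against 8.95, 8.73 and 7.83 (2.24 ± 0.29, adjusted p = 0.0011). Ddit3, which codes for CHOP, read 7.17, 7.31 and 6.29 against 9.94, 9.73 and 7.83 (2.24 ± 0.45, adjusted p = 0.0147). Cebpb and Atf4, also transcription factors, rose by 1.27 and 1.03 (adjusted p = 0.0259 and 0.0061). No array of the HFD TRAF3 knockouts overlapped the controls for these 5 genes. Trib3, Ppp1r15b, Asns, Chac1, Sesn2, Ddit4 and Nupr1 of the same list did not pass. Within TRAF3 knockouts, Atf3 and Ppp1r15a also rose from chow to HFD (2.85 and 1.17, limma adjusted p = 0.00904 and 0.0223). Ddit3, Cebpb and Atf4 did not pass there. The count of 5 was 3 without HFD control 3 or HFD TRAF3 knockout 1 or 2, 9 without chow control 1, and 9 with the acinar score as a covariate. On chow 0 of the 12 passed by limma in TRAF3 knockouts, with 2 at an unadjusted p under 0.05. Atf3 there read 7.87, 7.60 and 8.14, and the controls were 6.08, 8.77 and 9.18, with chow control 1 as low as the HFD controls. Judged by Xist, this chow control is female, as are the 3 HFD controls, whereas chow controls 2 and 3 are male. With no male HFD control, the parts of sex and diet in the Atf3 values of controls were not tested. HFD TRAF2 knockouts, whose replicate 1 is male, had a mean Atf3 of 6.60. In HFD TRAF3 knockouts the female replicates 2 and 3 read 10.64 and 10.12, above the female HFD controls. The score of the 12 genes was -0.84 in chow control 1 and at most 0.69 in its group.

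**Figure D5:**
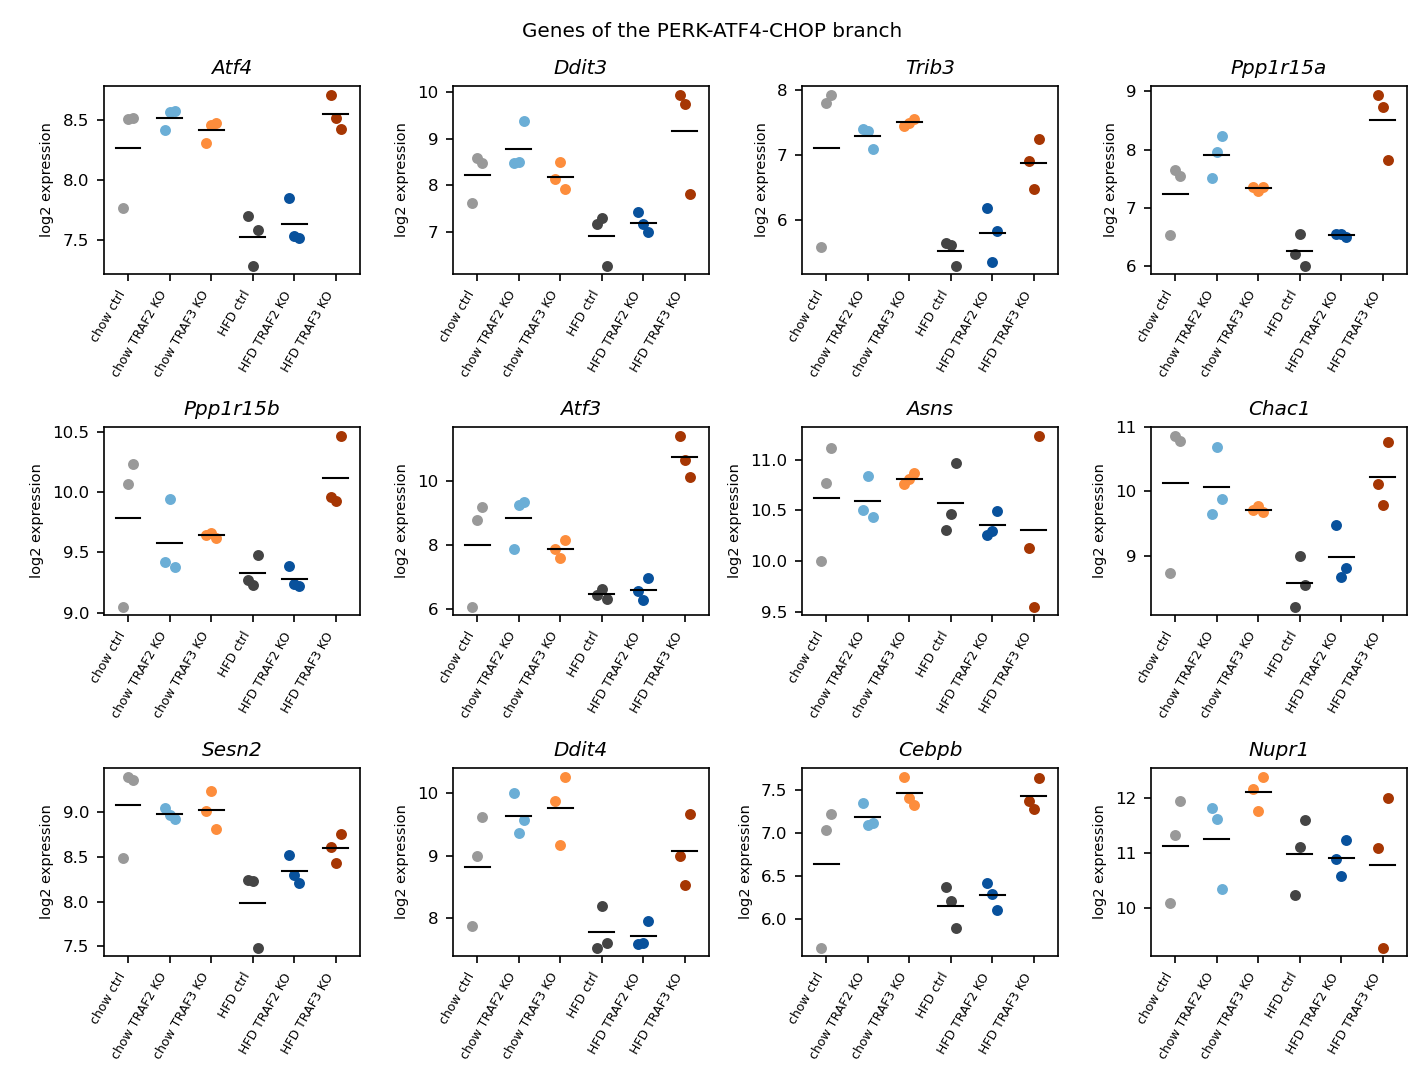
Log2 expression of the 12 genes of the PERK, ATF4 and CHOP branch, with 1 point an array and a line at the mean of each group. Atf3, Ppp1r15a, Ddit3, Cebpb and Atf4 lie above the HFD controls in all 3 HFD TRAF3 knockouts, and chow control 1 lies below the other chow controls in most panels.

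Of 90 further genes of the same compartment, in 6 lists, 11 passed in chow TRAF3 knockouts, or 12.2%, close to the 11% of all genes called. Of 21 further oxidoreductases and folding factors, 2 rose and 1 fell. Ero1a, the oxidase that recharges disulfide isomerases, read 9.67, 10.25 and 10.13 in chow controls and 11.11, 11.52 and 11.06 in chow TRAF3 knockouts (1.22 ± 0.24, adjusted p = 0.00514). Its islet-enriched relative Ero1b read 12.20, 12.01 and 11.94 against 10.93, 11.22 and 10.68 (-1.11 ± 0.24, adjusted p = 0.00876). On HFD the TRAF3 knockouts read 9.91, 9.66 and 9.94 for Ero1a and 12.06, 12.02 and 11.56 for Ero1b, so that Ero1a was lower (-1.39 ± 0.24, adjusted p = 0.00267) and Ero1b higher (0.94 ± 0.24, adjusted p = 0.0237) than on chow. The glucosidase gene Mogs also rose on chow (0.41 ± 0.12, adjusted p = 0.042), but passed in 4 of 11 fits with another setting and 5 of 18 without 1 array, against 10 of 11 and 18 of 18 for Ero1a. Of 12 further translocation factors, 3 rose in chow TRAF3 knockouts (Tram2, Srp19 and Srp14) and 1 fell (Srp72), with Tram2 the largest (1.20 ± 0.29, adjusted p = 0.0143). Of 19 further degradation factors, Ube2j2 and Nploc4 rose and the lectin Os9 fell. Without 1 array Nploc4 passed in 4 of 18 fits, Srp72 in 5, Os9 in 8, Srp14 in 9 and Ube2j2 in 11. Of 12 further ER stress transcription factors and their processing genes, Creb3l2 fell (-0.76 ± 0.18, adjusted p = 0.0142). None of 11 further oligosaccharyltransferase subunits and none of 15 genes of COPII transport passed there by limma, with 2 and 3 at an unadjusted p under 0.05. The beta cell genes that fell in these arrays are given above, and their part was not tested.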

How the data were processed

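Islet RNA (250 ng) was labelled with biotin and hybridised to 18 arrays. The table deposited by the authors gives log2 values for 41345 probe sets, with none missing; per the submitters' processing notes RMA and limma were used, with no version, and the build is not given in the sources used here. Array medians of 4.80 to 4.96 and maxima of 13.5 to 13.6 were compatible with that scale.

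Probe sets with exactly 1 symbol in the platform annotation (23521) were kept; 1814 had several and 16010 none. Of the 1082 genes with several probe sets the brightest was taken, giving 22180 genes. Traf3 mRNA is not reported here. Group means were fitted once over all 18 arrays with limma 3.58.1 in R 4.3.3 (12 residual and 3.69 prior degrees of freedom), tested on simulated data, two-sided, with Benjamini-Hochberg adjustment over all genes. The number of arrays limits the precision. The genes, lists, motifs and markers were chosen with earlier results of these data known.

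All 40 genes were named: in each comparison those that passed, or else the 2 with the smallest p, with their values. Of each further list, up to 3 genes that passed with the largest change were named; Cebpb and Atf4 among the 5 PERK branch genes, and other genes beyond 3, were picked with their values in view. Each alternative altered a single step: scaling, eBayes options, dim genes, probe sets, samples fitted, the replicate number as a block, acinar, ductal or sex scores as covariates, and each array left out in turn.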

Additional observations from a re-analysis of the deposited data

Results flagged for a closer look

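Several effects differed between groups by a test of the difference itself, each in limma with adjustment over all genes. The TRAF3 knockout effect was larger on HFD than on chow by 0.94 for Hspa5 (adjusted p = 0.0293, HFD 0.76 and chow -0.18) and by 0.83 for Syvn1 (adjusted p = 0.0319, HFD 0.66 and chow -0.17). The same held for Atf3 by 4.40, Ppp1r15a by 2.15 and Ddit3 by 2.29 (adjusted p = 0.0112, 0.0112 and 0.0471) and for Sec24a, a COPII coat gene, by 0.55 (adjusted p = 0.0481). Of these, Atf3 and Ppp1r15a passed in all 11 fits with another setting and all 18 without 1 array, whereas Ddit3 and Sec24a each passed in 7 and 4. On HFD the TRAF3 knockouts exceeded the TRAF2 knockouts by 4.13 for Atf3, 1.97 for Ppp1r15a and 0.92 for Atf4 (adjusted p = 0.00362, 0.00419 and 0.0209), and no arrays of these groups overlapped.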

How the results depend on the processing

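The median difference of the 40 genes moved by less than 0.109 in all 131 fits with another setting and in 214 of 216 fits without 1 array. This limit is the SD within groups of their mean deviation per array. Several of the medians are smaller than the limit, so it cannot show whether those kept their size or sign. No gene of the 40 or of the further ER and PERK branch lists that had passed changed direction. Counts of genes that passed were more sensitive: 105 of 131 and 180 of 216 stayed within 1.5 times. For the TRAF3 knockout on chow (1 gene) the count was 2 without dim genes (11090 genes), 0 with every probe set, 0 with only the groups compared, 2 with the replicate block and 3 with the acinar score. On HFD (3 genes) it was 0 with only the groups compared, where PERK branch genes went from 5 to 3, and those were 9 with the acinar score. For both knockouts (1) it was 0 with every probe set or the sex score. For HFD against chow it was 1 in controls (0) after centring, 1 without dim genes and 2 with the ductal score; 1 in TRAF2 knockouts (0) with only the groups compared or the acinar score; and 1 in TRAF3 knockouts (3) with only the groups compared. TRAF3 against TRAF2 knockouts (0) gave 1 on chow after quantile normalization, without dim genes, with the replicate block or the ductal score and 2 with the acinar score, and on HFD 2 after centring or quantile normalization and 1 with the acinar or sex score. The diet dependence of the TRAF3 knockout (2) gave 5 without dim genes, 0 with every probe set and 0 with only the groups compared. The cause of these shifts was not tested beyond the fewer or more genes and samples fitted. Without 1 array, counts ranged from 0 to 2 (TRAF3 knockout, chow), 0 to 4 (HFD; PERK branch 3 to 9), 0 to 1 (both knockouts), 0 to 4 (HFD against chow in TRAF3 knockouts), 0 to 3 (TRAF3 against TRAF2, either diet) and 0 to 6 (diet dependence), and the median of TRAF3 against TRAF2 on chow from -0.325 to -0.109. With the ductal score Herpud1 (0.73, adjusted p = 0.0671) and Sec62 (-0.51, 0.0599) missed the threshold. No pairing by replicate number was seen over all groups together. Deviations of same-numbered arrays correlated at -0.549 to 0.529 (median 0.0287, different numbers -0.0316), and 8 of 18 arrays matched their own number best. Pairing within a diet was not examined. Replicate 1 was female in every chow group and male in both HFD knockout groups, so these pooled values cannot show whether numbers pair samples within a diet. No fit with only the groups compared was made for both knockouts, which use all 18 arrays. The PERK branch count was tried under these settings after seeing the data.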

Other observations

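In TRAF2 knockouts 3 of the 12 PERK branch genes fell from chow to HFD and none rose, against 1.96% of all genes called: Ddit4, an inhibitor of mTORC1 signalling (-1.94 ± 0.39, adjusted p = 0.0165), Ppp1r15a (-1.37 ± 0.29, adjusted p = 0.0249) and Atf4 (-0.89 ± 0.18, adjusted p = 0.0179). In controls 1 fell, against 0.884% of all genes called: Sesn2, a stress-induced regulator of metabolism (-1.09 ± 0.23, adjusted p = 0.0401), which passed in 7 of 18 fits without 1 array. There Bhlha15, the secretory cell transcription factor Mist1, rose (0.90 ± 0.18, adjusted p = 0.0303). The medians of the 12 were -0.998 in TRAF2 knockouts and -1.02 in controls. In controls 3 of the 12 lay below the chow arrays without overlap, and chow control 1, with a score of -0.84, lay within the range of the HFD controls (-0.88 to -0.65). Judged by Xist, chow control 1 is female, as are the 3 HFD controls, and the other 2 chow controls are male. Diet and sex were thus mixed in the comparison of controls. Bhlha15 is also an acinar gene, and all 26 acinar genes were above 0 in controls, of which it alone passed. Beside these values 6 of 10 macrophage genes rose in controls and 4 in TRAF2 knockouts; their part was not tested.

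In TRAF3 knockouts 1 of 19 further degradation factors rose from chow to HFD, the ligase gene Rnf5 (0.63 ± 0.16, adjusted p = 0.0264), and 3 fell: the protease gene Rhbdd1 (-0.49 ± 0.12, adjusted p = 0.0215), Vcp, the ATPase that extracts substrates from the membrane (-0.46 ± 0.11, adjusted p = 0.0163), and its cofactor Nploc4 (-0.43 ± 0.13, adjusted p = 0.0493). Of all genes 8.67% were called in this comparison and 2.66% called higher. Over the 90 further genes of the 6 lists 6 passed, or 6.67%, which is below the share of all genes. Rhbdd1, Vcp and Nploc4 fell in the same comparison in which Syvn1, Herpud1 and Derl3 rose. Without 1 array Nploc4 passed in 3 of 18 fits, Rnf5 in 14, Rhbdd1 in 15 and Vcp in 16. With another setting they passed in 6, 9, 9 and 8 of 11 fits, where Vcp ranged from -0.47 to -0.21.

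In 5 of the 40 genes another, dimmer probe set was present (Edem1, Derl2, Sec61b, Ssr1 and Spcs2). In HFD TRAF3 knockouts against controls these differed by -0.19, -0.08, -0.07, -0.21 and -0.19.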
